A study of Mus musculus with 16 samples.

Results

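Dnmt1, Dnmt3a, Dnmt3b, Uhrf1, Tet1, Tet2, Tet3 and Tdg are the genes that write DNA methylation and take it off, and their transcripts were followed here in CD4 T cells of mice carrying a B cell lymphoma. The 8 genes were found by symbol among the 23479 genes of a count table from RNA sequencing. All 8 were among the 18430 genes that passed a filter on low counts. The cells came from spleens of C57BL/6 mice and were isolated by immunomagnetic negative selection, in which beads bind and remove other cells. There were 5 libraries from mice without tumours (controls, given as Day 0 in the labels), 7 libraries from day 7 and 4 from day 14 after transplant of Eu-Myc lymphoma cells, which come from B cells whose Myc oncogene is driven by an immunoglobulin heavy chain enhancer. The age and sex of the mice, the lymphoma clone or clones, and any mock transplant of the controls are not stated in the sources used.

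DNA methylation is a methyl group on cytosine, mostly where a guanine follows, and in promoters it usually goes with silencing. Dnmt1 copies the mark onto the new strand after DNA replication, and Uhrf1 binds DNA methylated on a single strand and brings Dnmt1 to it. Dnmt3a and Dnmt3b place the mark on unmethylated DNA. The Tet enzymes oxidise methylcytosine, and Tdg cuts out the oxidised bases, which base excision repair then replaces. In CD4 T cells Dnmt3a is known for silencing the cytokine genes of other helper lineages, and Tet2 for promoting cytokine expression in effector cells. Mki67 encodes the Ki-67 protein of dividing cells and serves below as the measure of how much a library holds of dividing cells.

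Libraries held 14493764 to 27340070 counts in genes, and levels are given as CPM, which are counts scaled to a common library size after TMM scaling. Every library expressed CD4 T cell markers, with a summed level of Cd3e, Cd3g, Cd4, Lck and Cd28 of 2424 to 4815 CPM in controls, 3399 to 5189 CPM at day 7 and 2643 to 3957 CPM at day 14. Mki67 stood at 1380, 3252, 357, 263 and 190 CPM in control libraries 1 to 5. At day 7 it ran from 126 CPM through a median of 196 CPM to 495 CPM, and in day 14 libraries 1 to 4 it stood at 266, 915, 759 and 1461 CPM. Control libraries 1 and 2 therefore stand apart from the other 3 controls. They also held 835 and 2270 CPM of a list of 9 neutrophil and myeloid precursor genes, against 19.1 to 50.9 CPM in the other controls, and day 14 library 4 held 1730 CPM of it, against 18.5 to 60.8 CPM in the other day 14 libraries. At day 7 this list summed to 0.802 to 36.4 CPM. Transcripts of 4 Y-linked genes were abundant in 5 libraries, control 1 and 2, day 7 libraries 6 and 7 and day 14 library 4, which are also the libraries highest in Mki67 within their groups. Results are therefore given with and without control 1 and 2, and with and without these 5 libraries. In bulk RNA, fewer cells of a type and less RNA per cell cannot be told apart.

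By GENCODE on GRCm38, Dnmt1 spans chr9:20907209-20959888 and Tet3 chr6:83362373-83459084 on the minus strand, as do Tet1 (chr10:62804570-62908996) and Tet2 (chr3:133463679-133545139). Uhrf1 (chr17:56303321-56323486), Dnmt3a (chr12:3806007-3914443), Dnmt3b (chr2:153649450-153687730) and Tdg (chr10:82629828-82650799) lie on the plus strand. The start regions of Uhrf1, Dnmt1, Tet1 and Mki67, whose levels are set side by side below, are shown here for the short words in them that cell cycle factors are known to bind. Sequences are the 250 bases before an annotated transcript start in RefSeq (GRCm38.p6), and all 8 genes had an entry. For Tet1 only the stretch of them that no annotated exon covers is printed, and for Dnmt1 only a short piece described below. The words searched on both strands were those of E2F (TTTCCCGC, TTTCGCGC, TTTGCCGC and TTTGGCGC), the cell cycle homology element CHR (TTTGAA) and the CCAAT box (CCAAT). An E2F word occurs in 1.86% of all 32851 such windows, a CHR in 16% and a CCAAT box in 33.8%. Capitals mark these words, written as they read on the strand of the gene. The Uhrf1 window (chr17:56304063-56304312, plus strand) holds 1 E2F word, 2 CCAAT boxes and 30 CpG, against a median of 6 CpG over all windows. The Dnmt1 stretch (chr9:20952827-20952850, minus strand) is the E2F word with 8 bases on each side, 24 bases in all. It was not chosen to be free of annotated exons and may lie within one. Of the 250 bases of its window, 166 overlap annotated exons, and the whole window holds 1 E2F word, 3 CCAAT boxes and 26 CpG. The Mki67 window (chr7:135716380-135716629, minus strand) holds 2 CHR words and 3 CCAAT boxes and no E2F word. The Tet1 stretch (chr10:62887325-62887412, minus strand) is 88 bases long and holds none of the words, nor does its whole window, with 15 CpG. That was the only Tet1 window, and it lies inside the GENCODE span of the gene, whose outer start was not searched. The Uhrf1 and Dnmt1 windows with an E2F word also lie inside the spans of their genes. The printed stretches of Dnmt1 and Tet1 are shorter than those of Uhrf1 and Mki67, so words are to be compared over whole windows.
Uhrf1: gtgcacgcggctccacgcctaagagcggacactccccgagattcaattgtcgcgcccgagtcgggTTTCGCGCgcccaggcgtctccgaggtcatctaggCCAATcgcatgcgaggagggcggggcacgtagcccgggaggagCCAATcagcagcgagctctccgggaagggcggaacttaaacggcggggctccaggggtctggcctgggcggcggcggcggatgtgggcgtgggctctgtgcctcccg
Dnmt1: ttccgcgcGCGCGAAAaagccggg
Mki67: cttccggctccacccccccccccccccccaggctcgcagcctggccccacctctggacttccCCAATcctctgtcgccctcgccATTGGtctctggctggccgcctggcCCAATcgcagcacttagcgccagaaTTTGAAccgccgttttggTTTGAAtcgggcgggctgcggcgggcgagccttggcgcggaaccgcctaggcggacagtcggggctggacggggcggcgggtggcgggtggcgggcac
Tet1: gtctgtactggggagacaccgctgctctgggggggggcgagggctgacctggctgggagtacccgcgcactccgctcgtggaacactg
The other window of Uhrf1 and the other windows of Dnmt1 held no E2F word, and no window of Dnmt3a, Dnmt3b, Tet2, Tet3 or Tdg held one. A match is a run of letters in a window and was not tested as a binding site.

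Per kilobase of exon, which puts genes of different length on a common scale, Dnmt1 and Tet3 were the most abundant of the 8 genes in every group. The length is that of all annotated exons of a gene together, whichever transcripts these cells used, and the order depends on it. In plain CPM Tet3 averaged 511.5, 597 and 557 in controls, at day 7 and at day 14, above Dnmt1 at 329, 268 and 287.5. Dnmt1 averaged 44.6 ± 12.2 CPM per kilobase in controls, 36.3 ± 2.72 at day 7 and 39.0 ± 8.74 at day 14 (SD, n = 5, 7 and 4). Tet3 averaged 30.6 ± 8.06 CPM per kilobase in controls, 35.8 ± 1.40 at day 7 and 33.4 ± 4.19 at day 14. At day 7 these means of Dnmt1 and Tet3 differed by less than their SDs. Uhrf1 averaged 17.3 ± 18.8 CPM per kilobase in controls, 3.91 ± 2.50 at day 7 and 10.1 ± 6.13 at day 14, so its place in the order depended on the library. Tet2 averaged 10.9, 13.8 and 13.4 CPM per kilobase in controls, at day 7 and at day 14, and Dnmt3a 7.33, 7.91 and 7.22. Tet1 lay at 3.80, 5.00 and 3.58 CPM per kilobase and Dnmt3b at 2.38, 2.23 and 3.01 in the same order of groups. Within its family, Dnmt1 made up 81.4% ± 4.97 of the summed per-kilobase level of the 3 Dnmt genes in controls, 78.1% ± 1.79 at day 7 and 78.8% ± 2.97 at day 14. Tet3 made up 66.9% ± 4.29 of the 3 Tet genes in controls, 65.6% ± 2.78 at day 7 and 66.2% ± 3.73 at day 14, and Tet1 less than 11% in any library.

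**Figure D1:**
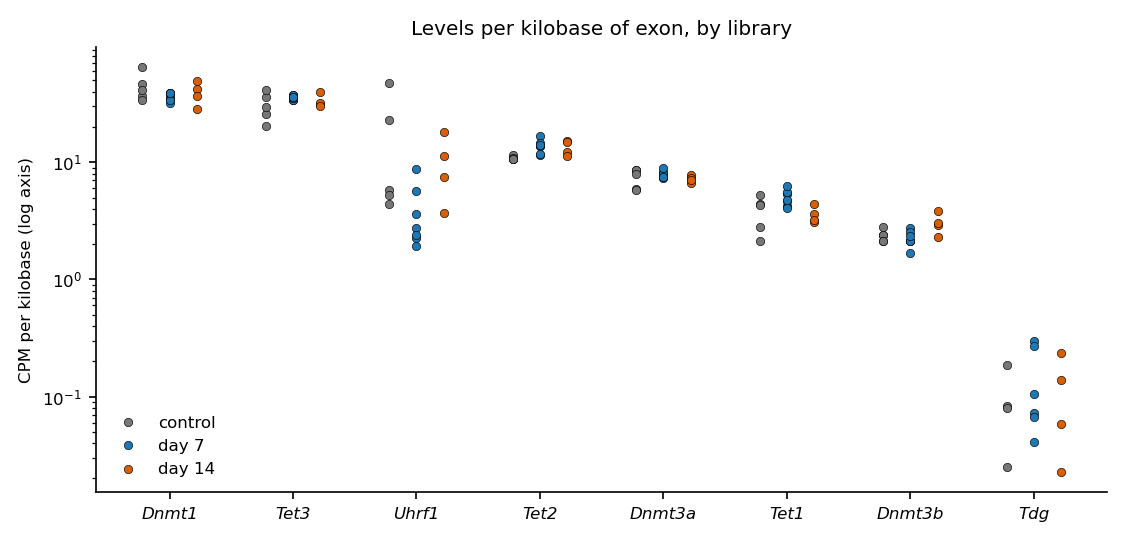
Levels of the 8 genes in CPM per kilobase of exon on a log axis, each point 1 library, with controls, day 7 and day 14 side by side for each gene. Dnmt1 and Tet3 lie highest, Tdg lies near the bottom at means of 0.0751 to 0.122, and the 2 libraries without a Tdg read cannot be drawn on a log axis.

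Uhrf1 was the gene of the maintenance pair that differed most between libraries, from 8.14 to 204 CPM. Control libraries 1 to 5 held 97.9, 204, 24.8, 22.3 and 18.7 CPM. The 7 day 7 libraries ran from 8.14 CPM through a median of 11.8 CPM to 37.5 CPM, and day 14 libraries 1 to 4 held 15.8, 48.2, 31.7 and 76.9 CPM. The groups overlap throughout, and the highest library of each group (control 2, day 7 library 7 and day 14 library 4) is also its highest in Mki67. At day 7 Uhrf1 averaged 16.7 ± 10.7 CPM against 73.6 ± 80.1 CPM in controls, a log2 change of -2.14 ± 0.56 (SE) that did not pass (edgeR quasi-likelihood test over all genes, adjusted p = 0.0777). Without control 1 and 2 the log2 change at day 7 was -0.39 ± 0.43 (edgeR adjusted p = 0.715). DESeq2 called Uhrf1 lower at day 7 (adjusted p = 0.0179), and over all alternatives the adjusted p ran from 0.0179 to 0.715. At day 14 it averaged 43.1 ± 26.1 CPM, and the log2 change was -0.77 ± 0.64 against controls and 1.37 ± 0.58 against day 7 (edgeR adjusted p = 0.469 and 0.274). The sign against controls turned without control 1 and 2, to 0.97 ± 0.49, and without control 2 alone, to 0.07. Without the 5 Y-linked libraries Uhrf1 rose at day 14 against day 7, by a log2 change of 1.54 ± 0.26 (edgeR adjusted p = 0.00322), and without control 1 and 2 by 1.36 ± 0.38 (edgeR adjusted p = 0.0482), where the other alternatives ran up to 0.702. In those fits 2.96% and 4.38% of all tested genes passed at day 14 against day 7. Mki67 moved alongside in these same fits, by 1.82 ± 0.28 and 1.76 ± 0.35 (edgeR adjusted p = 0.00164 and 0.00941). With Mki67 as a covariate, Uhrf1 fell at day 14 against controls by a log2 change of -0.55 ± 0.15 (edgeR adjusted p = 0.0213, with 0.0213 to 0.940 over all alternatives), in a fit where 10.8% of all genes passed, and its change at day 14 against day 7 was -0.20 ± 0.16. Of the 50-base words in Uhrf1 transcripts, 15.4% also occur in another gene, mostly Gm5648.

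Dnmt1 varied far less than Uhrf1. It stood at 343, 478, 269, 303 and 253 CPM in control libraries 1 to 5, ran from 238 CPM through a median of 265.5 CPM to 289 CPM at day 7, and stood at 209, 311, 270 and 361 CPM in day 14 libraries 1 to 4. The high libraries were again control 1 and 2 and day 14 library 4, and the low one was day 14 library 1, so the groups overlap. Dnmt1 averaged 268 ± 20.1 CPM at day 7 and 329 ± 89.9 CPM in controls, a log2 change of -0.30 ± 0.15 (edgeR adjusted p = 0.249). At day 14 it averaged 287.5 ± 64.5 CPM, with log2 changes of -0.20 ± 0.17 against controls and 0.10 ± 0.16 against day 7 (edgeR adjusted p = 0.482 and 0.778).

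Neither de novo enzyme passed in a group comparison. Dnmt3a stood at 98.3 and 96.5 CPM in control libraries 1 and 2 and at 142, 142 and 131 CPM in the other 3 controls. It ran from 122 CPM through a median of 130 CPM to 150 CPM at day 7 and stood at 111, 129, 122 and 118 CPM in day 14 libraries 1 to 4. Both high-Mki67 controls were thus the lowest of all 16 libraries for this gene. Its log2 changes were -0.02 ± 0.12 at day 14 and 0.11 ± 0.10 at day 7 against controls, and -0.13 ± 0.11 at day 14 against day 7 (edgeR adjusted p = 0.918, 0.591 and 0.624), and the sign at day 14 against controls turned under other scalings. Dnmt3b was the least abundant Dnmt gene, with 12.2, 14.4, 12.3, 10.8 and 10.95 CPM in control libraries 1 to 5, 8.59 CPM through a median of 10.9 CPM to 14.0 CPM at day 7, and 14.8, 15.4, 11.7 and 19.5 CPM at day 14. In 3 of the 4 day 14 libraries it lay above every other library, day 14 library 3 being within the range of the others. Its log2 change was 0.34 ± 0.18 at day 14 against controls and 0.43 ± 0.17 at day 14 against day 7 (edgeR adjusted p = 0.268 and 0.227). Of the 50-base words in Dnmt3b transcripts, 9.81% also occur in another gene, mostly Dnmt3c, so part of its reads may be shared with that copy.

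**Figure D2:**
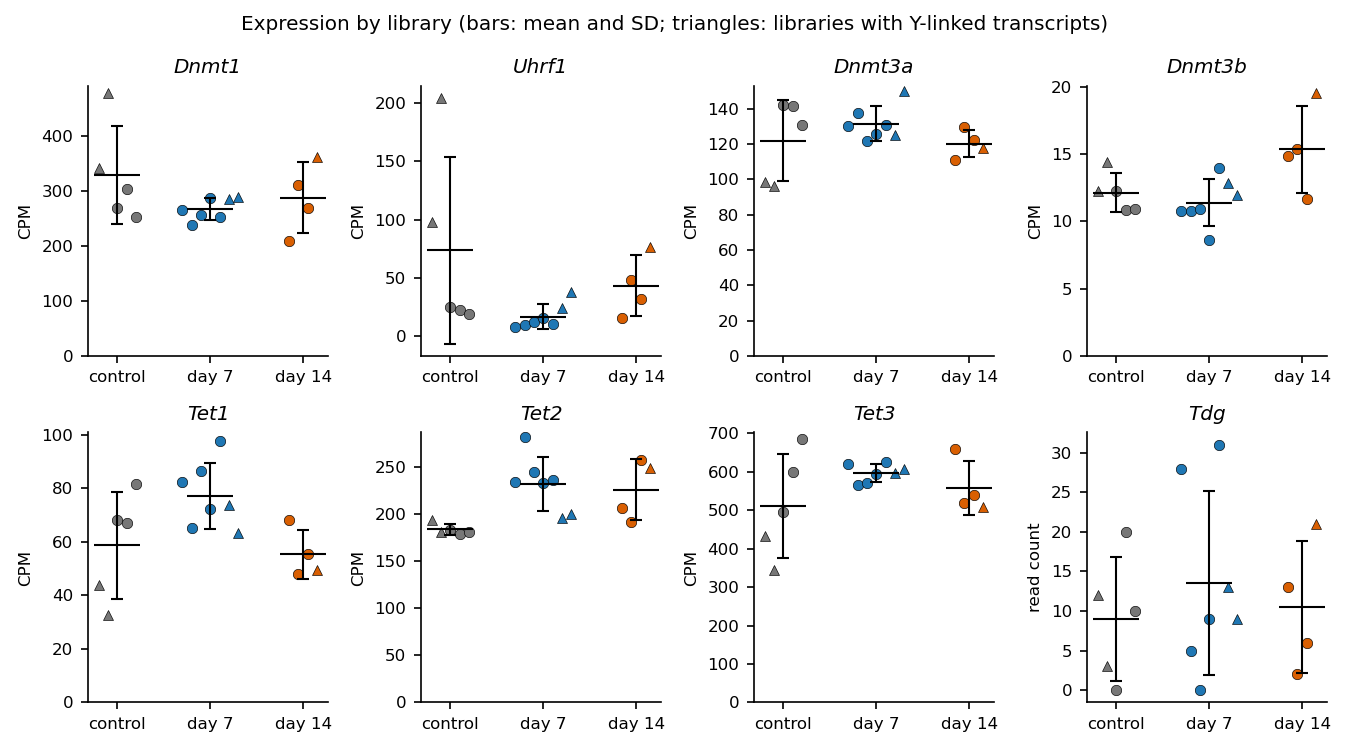
Level of each gene by library, in CPM (Tdg in read counts), with controls, day 7 and day 14 from left to right. Points are libraries, triangles the 5 libraries with abundant Y-linked transcripts, and bars the mean and SD of n = 5, 7 and 4. Uhrf1 and Dnmt1 are highest in control 1 and 2 and in day 14 library 4, Tet1 and Dnmt3a are low in control 1 and 2, and Tet2 is lower in all 5 controls than in any day 7 library.

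Tet2 was the gene whose groups separated, day 7 against controls. The 5 controls held 194, 181, 183, 179 and 181 CPM, the 7 day 7 libraries 195.5 CPM through a median of 233.5 CPM to 281 CPM, and day 14 libraries 1 to 4 held 207, 191, 257 and 249 CPM. All 7 day 7 libraries lay above all 5 controls, by a margin of 195.5 against 194 CPM at the nearest, where day 7 library 6 meets control 1. Only 1.97% of all tested genes separated in this way between day 7 and controls, and 0.988% with day 7 higher. Among the 8 genes Tet2 was the only one, and the spread among controls was narrow (184 ± 5.74 CPM, n = 5) beside that at day 7 (232 ± 28.8 CPM, n = 7). Its log2 change at day 7 was 0.34 ± 0.10, which did not pass in edgeR (adjusted p = 0.0813) and passed in DESeq2 (adjusted p = 0.0174), with 0.0174 to 0.584 over all alternatives. It was 0.36 ± 0.12 without control 1 and 2 and 0.40 ± 0.12 without the 5 Y-linked libraries. At day 14 Tet2 averaged 226 ± 32.1 CPM, a log2 change of 0.30 ± 0.11 against controls (edgeR adjusted p = 0.129), and 3 of the 4 libraries lay above every control. That change passed in DESeq2 (adjusted p = 0.0384) and with library totals as the scaling (0.51 ± 0.12, edgeR adjusted p = 0.0236), where the median of all genes also shifted by 0.204. Between day 14 and day 7 the log2 change was -0.04 ± 0.10 (edgeR adjusted p = 0.878).

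Tet1, the least abundant Tet gene, ran opposite to Uhrf1. Control libraries 1 to 5 held 43.7, 32.6, 68.3, 67.0 and 81.7 CPM, the day 7 libraries 63.2 CPM through a median of 73.8 CPM to 97.7 CPM, and day 14 libraries 1 to 4 held 68.3, 48.0, 55.6 and 49.3 CPM. Controls 1 and 2 were the lowest of all libraries, and 3 of the 4 day 14 libraries lay below every day 7 library. Tet1 averaged 55.3 ± 9.25 CPM at day 14 against 77.3 ± 12.3 CPM at day 7, a log2 change of -0.48 ± 0.20 (edgeR adjusted p = 0.252). Without control 1 and 2 in the fit Tet1 fell at day 14 against day 7, by a log2 change of -0.49 ± 0.13 (edgeR adjusted p = 0.0390). Over all alternatives the log2 change of this comparison ran from -0.62 to -0.03 and its adjusted p from 0.0390 to 0.955. In that fit 4.38% of all tested genes passed, among them 4 of the 9 neutrophil and myeloid precursor genes as higher, Mpo (myeloperoxidase) by 5.85 ± 1.07 (edgeR adjusted p = 0.00552), and the T cell genes Cd3g and Lck as lower (-0.53 ± 0.14 and -0.38 ± 0.10, edgeR adjusted p = 0.0327 and 0.0469). Over all libraries Mpo, Elane and Ctsg of that list passed as higher at day 14 against day 7 (edgeR adjusted p = 0.0439, 0.0437 and 0.0499). The part of these cells in the Uhrf1 and Tet1 values at day 14 against day 7 was not tested. Against controls, which averaged 58.7 ± 20.0 CPM, its log2 changes were -0.08 ± 0.21 at day 14 and 0.40 ± 0.18 at day 7 (edgeR adjusted p = 0.812 and 0.219). Tet3 stood at 433, 343, 496, 599.5 and 685 CPM in control libraries 1 to 5, ran from 564 CPM through a median of 596.5 CPM to 626 CPM at day 7, and stood at 660, 520, 540 and 508 CPM in day 14 libraries 1 to 4. Its spread was widest among controls, and the day 7 libraries all lay within the range of the controls. The log2 changes of Tet3 were 0.12 ± 0.15 at day 14 and 0.22 ± 0.13 at day 7 against controls and -0.10 ± 0.14 at day 14 against day 7 (edgeR adjusted p = 0.626, 0.354 and 0.761).

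Tdg gave almost no reads. The counts were 12, 3, 0, 20 and 10 in control libraries 1 to 5, 0 to 31 with a median of 9 at day 7, and 13, 2, 6 and 21 in day 14 libraries 1 to 4. A count of 0 allows up to 3 reads in that library, and 41.2% of the 50-base words of Tdg transcripts also occur in another gene, mostly the pseudogene Tdg-ps. Reads that fit both places may not have been counted for Tdg, so its level is uncertain and no fold change is given.

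In the fit over all 16 libraries none of the 8 genes passed in any comparison (edgeR, adjusted p below 0.05). At day 14 against controls 0 of 8 passed, where 3.13% of all tested genes did. An unadjusted p below 0.05 was reached there by 1 of 8, and by 4124 of all 18430 tested genes. At day 7 against controls 0 of 8 passed, where 0.0109% of all tested genes did. Here 3 of 8 had an unadjusted p below 0.05, as did 3890 of the 18430. At day 14 against day 7 0 of 8 passed, where 0.966% of all tested genes did. Again 3 of 8 had an unadjusted p below 0.05, as did 2730 of the 18430. DESeq2 called 1, 2 and 0 of the 8 in these comparisons, where it called 8.42%, 8.7% and 3.84% of all genes, and limma-voom called none. No gene of the 8 separated the groups at day 14 against controls, where 8.08% of tested genes did, or at day 14 against day 7, where 4.55% did. The median log2 change of the 8 genes was 0.05 at day 14 and 0.17 at day 7 against controls, beside 0.12 and 0.07 over all tested genes. Day 14 and day 7 share the same 5 controls, so these 2 comparisons are not independent of each other.

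**Figure D3:**
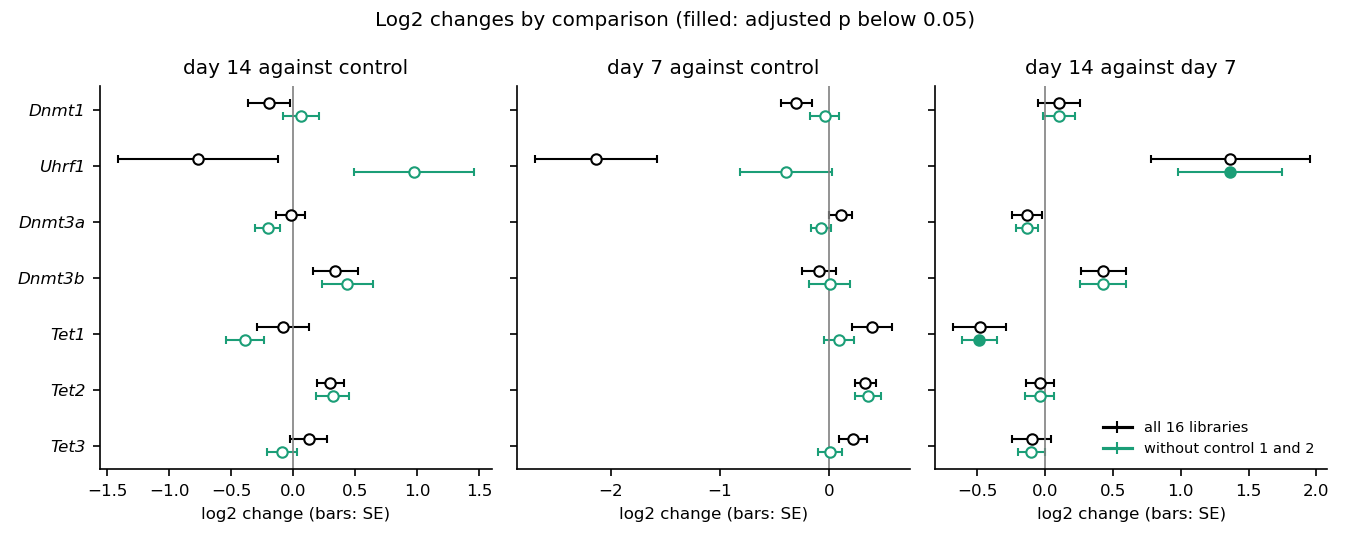
Log2 change of each gene with its SE at day 14 against controls, day 7 against controls and day 14 against day 7, from all 16 libraries (black) and without control 1 and 2 (green), Tdg left out. Filled points have an edgeR adjusted p below 0.05. The Uhrf1 estimate at day 14 against controls changes sign without control 1 and 2, and Uhrf1 and Tet1 pass at day 14 against day 7 without them.

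Across libraries, levels of 4 of the 8 genes moved with Mki67, the maintenance genes Uhrf1 and Dnmt1 up and the erasers Tet1 and Tet3 down. In a model with the 3 groups as terms, Uhrf1 rose by a log2 change of 0.93 ± 0.05 per log2 unit of Mki67 (edgeR adjusted p = 8.129e-11), and Dnmt1 rose by 0.20 ± 0.03 (edgeR adjusted p = 0.000196). Tet1 fell by 0.28 ± 0.04 (edgeR adjusted p = 3.303e-05) and Tet3 fell by 0.17 ± 0.03 (edgeR adjusted p = 0.0013) per log2 unit of Mki67. Thus 4 of the 8 genes passed, 2 higher and 2 lower, where 12.9% of all tested genes passed, 9.81% higher and 3.09% lower. Dnmt3a (-0.08 ± 0.04), Dnmt3b (0.09 ± 0.06) and Tet2 (-0.01 ± 0.04) did not pass (edgeR adjusted p = 0.247, 0.370 and 0.964).

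Other cells moved with Mki67 in the same model. All 9 neutrophil and myeloid precursor genes passed as higher, Mpo by 1.96 ± 0.25 per log2 unit (edgeR adjusted p = 8.836e-06), and so did the 3 tested erythroid genes. Of 5 CD4 T cell markers, Cd3g and Lck passed as lower. Mpo itself stood at 376, 646, 22.2, 14.8 and 13.5 CPM in control libraries 1 to 5, at 0.172 to 16.1 CPM at day 7 and at 9.20, 36.1, 18.4 and 1226 CPM in day 14 libraries 1 to 4. With Mpo as a further term, only Uhrf1 of the 8 genes passed, at 0.78 ± 0.11 per log2 unit of Mki67 (edgeR adjusted p = 0.000933), where 0.678% of all tested genes did. Dnmt1 was then 0.19 ± 0.07, Tet1 -0.34 ± 0.08 and Tet3 -0.23 ± 0.07 (edgeR adjusted p = 0.405, 0.0704 and 0.235), beside 0.20 ± 0.03, -0.28 ± 0.04 and -0.17 ± 0.03 without Mpo. Without control 1 and 2, Uhrf1 (0.99 ± 0.09) and Dnmt1 (0.22 ± 0.06) passed (edgeR adjusted p = 1.23e-06 and 0.0490), where 3.2% of all genes did, and Tet1 (-0.22 ± 0.06) and Tet3 (-0.11 ± 0.06) did not (edgeR adjusted p = 0.0801 and 0.368). Without the 5 Y-linked libraries, Uhrf1 alone passed (0.77 ± 0.14, edgeR adjusted p = 0.00867), where 1.55% of all genes did. Tet3 was also lost without control 2 alone (edgeR adjusted p = 0.0648). How much of the Dnmt1, Tet1 and Tet3 relations comes from other cells in the libraries was not tested.

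**Figure D4:**
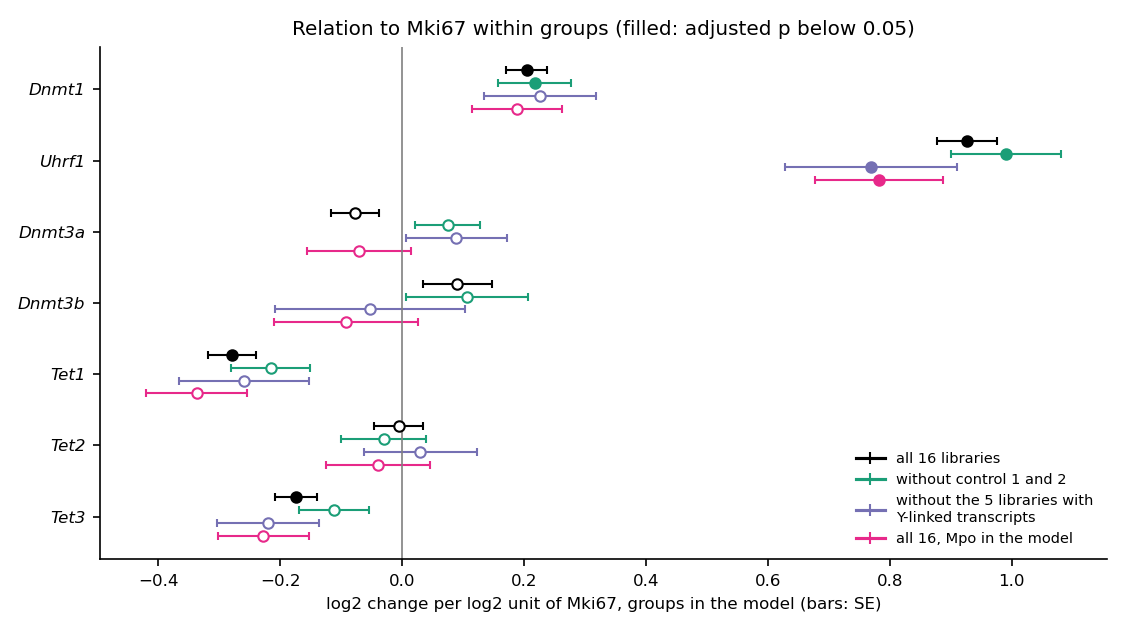
Log2 change of each gene per log2 unit of Mki67 with its SE, groups in the model, from all 16 libraries (black), without control 1 and 2 (green), without the 5 libraries with abundant Y-linked transcripts (purple) and with Mpo in the model (pink). Filled points have an edgeR adjusted p below 0.05. Uhrf1 stays between 0.77 and 0.99 and filled in all 4 fits, while Dnmt1, Tet1 and Tet3 keep their sign. Dnmt1 is filled in black and green only, and Tet1 and Tet3 in black only.

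As plain correlations of log2(CPM + 1) over the 16 libraries, 8 relations were computed, each with a 2-sided permutation test of 100000 pairings whose smallest p is 1e-05. Uhrf1 gave a Pearson r of 0.973 and a Spearman rho of 0.953 (permutation p = 1e-05 for both). Tet1 gave an r of -0.945 and a rho of -0.906 (permutation p = 1e-05 and 2e-05). Dnmt1 had an r of 0.836 and a rho of 0.768 (permutation p = 5e-05 and 0.0008), and Tet3 an r of -0.841 and a rho of -0.712 (permutation p = 0.00011 and 0.00274). The r of Uhrf1 exceeded that of 99.83% of all tested genes, and 99.98% of them had a higher r than Tet1. Without control 2 and day 14 library 4, the libraries farthest from the median of Mki67, r was 0.948 for Uhrf1, -0.907 for Tet1, 0.639 for Dnmt1 and -0.730 for Tet3 (permutation p = 1e-05, 1e-05, 0.0133 and 0.0031). The r of Dnmt3a (-0.608, permutation p = 0.0134) came to -0.372 without them (permutation p = 0.191) and to -0.415 without control 2 alone (permutation p = 0.125). The r of Dnmt3b (0.578, permutation p = 0.0189) came to 0.379 without them (permutation p = 0.183). Without day 14 library 4 alone Dnmt3b had an r of 0.484 and a rho of 0.571 (permutation p = 0.0682 and 0.0287). Its r was 0.659 without control 1 and 2 (permutation p = 0.0105). The rho of Dnmt3a was -0.406 and that of Dnmt3b 0.638 (permutation p = 0.12 and 0.00892). For Tet2, r was -0.272 and rho -0.265 (permutation p = 0.307 and 0.32), and for Tdg, r was -0.233 and rho -0.236 (permutation p = 0.384 and 0.376).

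Day 7 was the only group with 6 or more libraries and so the only one with an r of its own. There Uhrf1 kept an r of 0.964 with Mki67 (exact permutation test over 5040 orders, p = 0.00139) and a rho of 0.857 (exact p = 0.0238). Tet1 had an r of -0.632 and Dnmt1 an r of 0.662 within day 7 (exact permutation p = 0.128 and 0.114), Tet3 0.03 and Dnmt3a 0.534 (exact permutation p = 0.947 and 0.222). The most negative r within day 7 was that of Tet2, at -0.692 with a rho of -0.643 (exact permutation p = 0.0808 and 0.139). The most negative rho was that of Tet1, at -0.714 (exact permutation p = 0.0881). Dnmt3b had an r of 0.179 and Tdg an r of -0.317 (exact permutation p = 0.703 and 0.494). The negative relations of Tet3 and Dnmt3a with Mki67 thus had no negative r among the 7 day 7 libraries, whose Mki67 ended at 495 CPM. Without the 5 Y-linked libraries r was 0.920 for Uhrf1 and -0.870 for Tet1 over the other 11 (permutation p = 3e-05 and 0.00049), and 0.425 for Dnmt1 and -0.615 for Tet3 (permutation p = 0.194 and 0.0434).

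**Figure D5:**
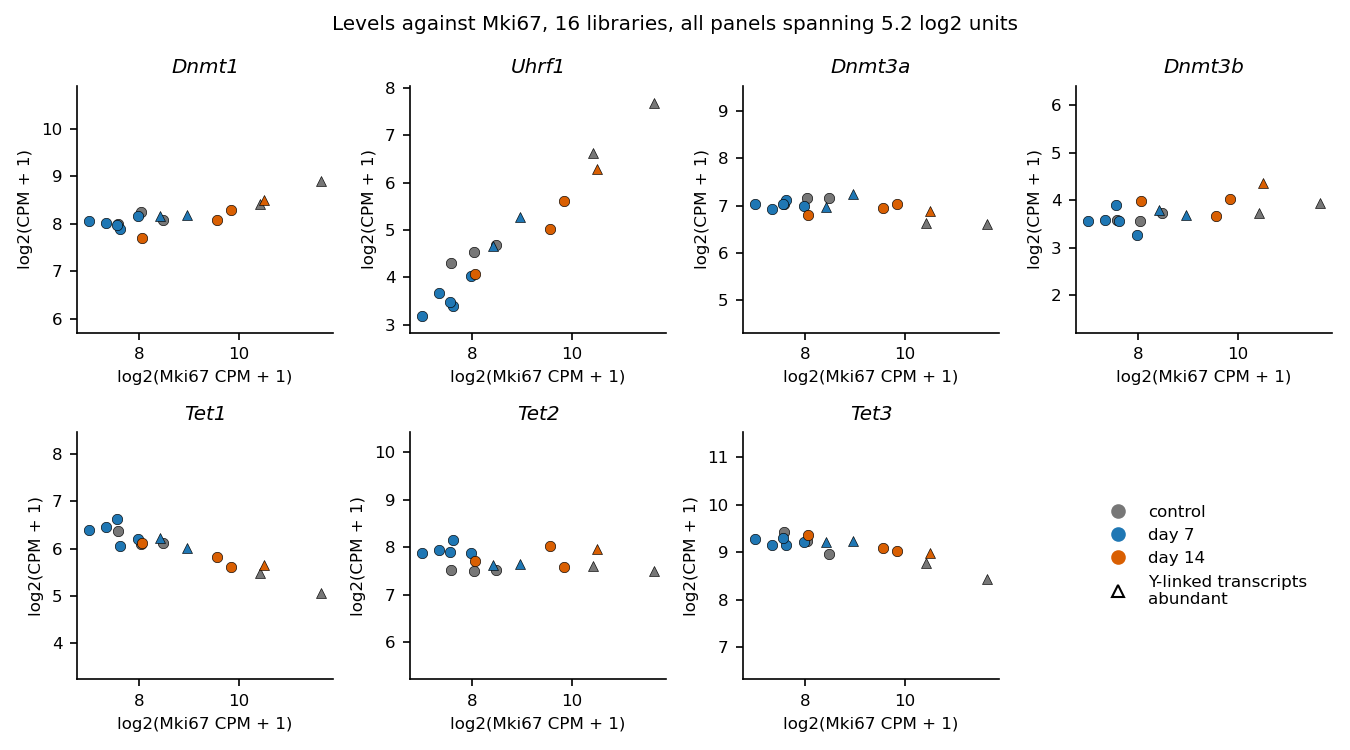
Level of each gene against that of Mki67, both as log2(CPM + 1), for 16 libraries coloured by group, with triangles for the 5 libraries with abundant Y-linked transcripts. Every panel spans the same height in log2 units, so slopes can be compared by eye. Uhrf1 rises along the whole range of Mki67 with r = 0.973, Tet1 declines with r = -0.945, and Dnmt1 and Tet3 change less steeply.

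The genes whose pattern over the 16 libraries was most like each enzyme were looked up among 9377 genes averaging 5 CPM or more, by Pearson r of log2(CPM + 1), as a description. Among the genes closest to Uhrf1 were Tpx2 (0.985) and Casc5 (0.984), which serve the spindle and the kinetochore. Dnmt1 was closest to Pck2 (0.966), Mbnl3 (0.965) and Ercc6l (0.965). Tet1 was closest to Dnm2 (0.931), Kif21b (0.927) and Smarca2 (0.920), and Tet3 to Cecr5, Armc7 and Slc28a2 (0.947, 0.947 and 0.944). Tet2 was closest to Itga4 (0.904), the integrin alpha 4 chain, Il15ra (0.902), the interleukin 15 receptor alpha chain, and Mbnl2 (0.874). Dnmt3a was closest to Trp53bp1, Igflr1 and Pias2 (0.886, 0.879 and 0.879) and Dnmt3b to Rnf157, Syne3 and Serinc3 (0.795, 0.774 and 0.774). For Tdg the highest were Slc35b3, Lims1 and Atpaf1 (0.827, 0.760 and 0.757), at the few reads given above.

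Other genes of the pathway were taken from lists by role. Of 10 partners of the Dnmt enzymes, 3 rose with Mki67 and none fell, where 9.81% of all tested genes rose and 3.09% fell. These were Hells, a chromatin remodeller needed for methylation of repeats (0.60 ± 0.04 per log2 unit, edgeR adjusted p = 2.208e-09), Cdca7, which recruits Hells (0.58 ± 0.08, 4.234e-05), and Trim28, a corepressor (0.11 ± 0.03, 0.0391). Hells stood at 57.4, 107, 25.6, 22.5 and 20.7 CPM in control libraries 1 to 5, 17.9 through a median of 24.7 to 33.3 CPM at day 7, and 21.2, 49.5, 39.1 and 80.5 CPM in day 14 libraries 1 to 4, so the same libraries were high as for Uhrf1. Hells still passed with Mpo in the model (0.47 ± 0.08, edgeR adjusted p = 0.00815) and without the 5 Y-linked libraries (0.58 ± 0.12, 0.0146). Cdca7 passed without control 1 and 2 and not in those other fits, and Trim28 in none of the 3. None of the 10 passed in any group comparison, although Hells rose at day 14 against day 7 without control 1 and 2 (0.90 ± 0.24, edgeR adjusted p = 0.0406). Without the 5 Y-linked libraries Cdca7 fell at day 7 against controls and rose at day 14 against day 7 (-1.18 ± 0.27 and 1.10 ± 0.27, edgeR adjusted p = 0.0470 and 0.0317).

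Of 12 excision repair genes, which act after Tdg or beside it, 3 rose with Mki67 and none fell, beside the same 9.81% and 3.09% of all tested genes. They were the glycosylase Neil3 (0.75 ± 0.11 per log2 unit, edgeR adjusted p = 3.977e-05), the endonuclease Apex1 (0.20 ± 0.06, 0.018) and the break sensor Parp1 (0.22 ± 0.04, 0.000498). Without control 1 and 2, Apex1 and Parp1 passed and Neil3 did not (edgeR adjusted p = 0.101), and none of the 3 passed without the 5 Y-linked libraries or with Mpo in the model. Neil3 also rose at day 14 against day 7 without control 1 and 2 (1.51 ± 0.40, edgeR adjusted p = 0.0376). Polb, the polymerase that fills the repaired gap, fell at day 14 against controls by a log2 change of -0.56 ± 0.14 (edgeR adjusted p = 0.0417), where 3.13% of all tested genes passed. It stood at 20.7, 34.1, 24.5 and 26.2 CPM in day 14 libraries 1 to 4, against 35.9, 36.5, 46.3, 40.9 and 34.4 CPM in controls 1 to 5, without overlap. Without control 1 and 2 the log2 change of Polb was -0.62 ± 0.16 (edgeR adjusted p = 0.0335), and without the 5 Y-linked libraries -0.65 ± 0.18 (edgeR adjusted p = 0.0536).

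Of 6 tested genes of the methyl donor cycle none passed with Mki67, and Mat2b, the regulatory subunit of methionine adenosyltransferase, fell at day 14 against controls (-0.47 ± 0.12, edgeR adjusted p = 0.0388). Mat2b stood at 34.8, 44.6, 30.1 and 41.5 CPM in day 14 libraries 1 to 4, against 51.6, 54.2, 58.98, 46.97 and 49.96 CPM in controls 1 to 5, also without overlap. It missed the threshold without control 1 and 2 and without the 5 Y-linked libraries (-0.46 ± 0.13 and -0.55 ± 0.16, edgeR adjusted p = 0.0528 and 0.0597). Of 8 readers of methylated DNA, the repressor Zbtb4 fell with Mki67 (-0.20 ± 0.06 per log2 unit, edgeR adjusted p = 0.0362). Of 7 genes around the Tet enzymes, Idh1, which makes their cosubstrate 2-oxoglutarate, rose with Mki67 (0.48 ± 0.12, edgeR adjusted p = 0.00841). Each is 1 gene of a short list, a share near the 12.9% of all tested genes that passed with Mki67. Neither passed without control 1 and 2, without the 5 Y-linked libraries or with Mpo in the model. Besides Polb and Mat2b, no gene of these 5 lists passed in a group comparison over all libraries. Markers of other cells passed in the same comparison of day 14 with controls, namely S100a8, S100a9 and Ngp of the 9 neutrophil and myeloid precursor genes (-6.17 ± 1.58, -6.60 ± 1.66 and -5.51 ± 1.48, edgeR adjusted p = 0.0441, 0.0417 and 0.0487) and Cd79a of 6 B cell genes (-1.78 ± 0.40, edgeR adjusted p = 0.0275), all lower at day 14. The lists did not move as 1, since 3 of the 9 and 1 of the 6 had positive changes. The B cell gene was Cd22 (0.67 ± 0.34, edgeR adjusted p = 0.245), which passed as higher without control 1 and 2, where Cd79a passed as lower. Without control 1 and 2 none of the 9 neutrophil genes passed there, at -1.18 ± 1.12 for S100a8 and 4.49 ± 1.35 for Ctsg (edgeR adjusted p = 0.479 and 0.0580). The T cell gene Cd3g passed as lower in that fit (-0.70 ± 0.16, edgeR adjusted p = 0.0235). The part of these other cells, or of a change in T cell content, in the Polb and Mat2b values was not tested.

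A last list held 12 germline genes known to be silenced by promoter methylation in somatic mouse cells. None passed in any test, and 11 of 12 had a positive log2 change at day 14 and at day 7 against the shared controls. Their median was 1.51 at day 14 and 0.857 at day 7, beside 0.119 and 0.066 over all tested genes. That background was not matched to the low level of the 12 genes. Other scarce genes of the lists, none of which passed, went both ways. Cxxc4, Dnmt3l and Zfp57 had log2 changes of 2.27, 2.15 and 0.59 at day 14 against controls, and 1.73, 1.33 and 0.24 at day 7. Cd8a and Siglech, markers of other cells, had -0.996 and -0.554 at day 14, and -1.555 and -0.267 at day 7. The 12 genes together summed to 1.498 to 8.14 CPM in controls, 1.83 to 15.2 CPM at day 7 and 5.89 to 14.2 CPM at day 14. Ddx4, the highest by its mean over all 16 libraries, averaged 0.698 ± 1.31 CPM in controls, where control 2 alone held 3.03 CPM, 1.09 ± 0.822 CPM at day 7 and 1.42 ± 0.261 CPM at day 14. Dazl, the member without a positive change, averaged 0.901 ± 0.497 CPM in controls, above Ddx4 there, 0.747 ± 0.592 CPM at day 7 and 0.566 ± 0.525 CPM at day 14. Reads outside gene models moved the same way and made up 47.1% to 56.7% of a library's total in controls, 54.6% to 68.0% at day 7 and 54.4% to 69.8% at day 14. Their part in the levels of these scarce genes was not tested.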

How the data were processed

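The authors deposited raw read counts for each gene as whole numbers in 16 libraries, and the columns were matched to samples by the code that the labels give as description. Per the submitters' processing notes, bcl2fastq 2.20.0.422, cutadapt 1.8.1 and HTSeq 0.6.1 were used with the build mm10. The aligner, annotation and strand setting are not stated in the sources used, so reads of overlapping, antisense or near-identical genes may be split or lost. The 5 lines that name no gene were left out of library sizes and tests, the largest being reads outside gene models.

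Groups came from the sample titles, and each library was taken as 1 mouse. The labels do not say that every library is a separate mouse beyond the number of mice in the design text, so p-values measure the spread between these libraries. The test was the quasi-likelihood test of edgeR 4.0.16 (in R 4.3.3) on all 16 libraries together, after filterByExpr by group and TMM scaling, with Benjamini-Hochberg adjustment over the 18430 tested genes and a threshold of 0.05. The coefficient of log2(Mki67 CPM + 1) came from the same fit with the groups as terms, with Mki67 itself left out. Each SE is the size of a log2 change over the square root of its F value. The common biological coefficient of variation was 54.5%. Correlations used log2(CPM + 1). Intervals for counts of 0 cover counting error only.

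Alternatives were RLE scaling, library totals, 2 other expression filters, DESeq2 1.42.0, limma-voom (limma 3.58.1), a replicate block, the 2 compared groups alone, Mki67 as a covariate, a pseudocount of 0.1 CPM and each library left out in turn. Leaving out control 1 and 2, leaving out the 5 Y-linked libraries (over 10 CPM summed over Ddx3y, Eif2s3y, Kdm5d and Uty) and adding Mpo as a covariate were chosen after seeing the data. The 8 genes, the lists and these comparisons were chosen with earlier results of these data known. The partner lists named in the text were written from textbook roles, and the text names each list gene that passed, or the most abundant where none did. For each of the 8 genes the text names the 3 genes of highest r, passing over predicted genes, and 1 of those of Uhrf1 is not reported here. Gene positions, exon lengths and shared 50-base words came from the GENCODE gene models on GRCm38 (the assembly behind mm10), and start regions from RefSeq. The fits were also run on simulated counts, with changes planted in genes of 5 CPM or more and no outlying libraries. The outcome is not reported here. Figures were made with Python 3.11.15 and Matplotlib 3.10.9.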

Additional observations from a re-analysis of the deposited data

How the results depend on the processing

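The number of the 8 genes called was 0 in each group comparison. It became 1 at day 14 against controls with library totals and with DESeq2 (Tet2) and with Mki67 as a covariate (Uhrf1, -0.55, edgeR adjusted p = 0.0213). It became 2 at day 7 against controls with DESeq2, and ran from 0 to 1 there when single libraries were left out (Uhrf1 without control 5). At day 14 against day 7 it became 2 without control 1 and 2 and 1 without the 5 Y-linked libraries, where 4.38% and 2.96% of all genes were called. With Mki67, 4 genes were called, 5 with DESeq2, 3 to 4 when single libraries were left out, 2 without control 1 and 2, and 1 both without the 5 Y-linked libraries and with Mpo as a covariate. The main fit called 3.13%, 0.0109% and 0.966% of all tested genes at day 14 and day 7 against controls and at day 14 against day 7, and 12.9% with Mki67. DESeq2 called more of all genes than the main fit in each, as counted at the end of this section. No share of all genes is given for library totals or for single libraries left out, so those counts are not set against all genes. The causes were not tested.

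At day 14 against controls, sign changes of uncalled values gave Dnmt3a 0.0291 with RLE scaling, 0.0292 with DESeq2, 0.182 with library totals, 0.0053 with the other filter, 0.0039 in the replicate block and 0.0148 with the Mki67 covariate. Tet1 gave 0.138 with library totals, 0.069 in the replicate block and 0.0481 with the Mki67 covariate. Without control 1 and 2, Dnmt1 gave 0.0632, Uhrf1 0.97 and Tet3 -0.0938, and without the 5 Y-linked libraries Uhrf1 gave 0.51 and Tet3 -0.0855. At day 7 against controls they gave Dnmt1 0.024 and Dnmt3b 0.0435 with the Mki67 covariate, Dnmt3a -0.0701 and Dnmt3b 0.0086 without control 1 and 2, and Dnmt3a -0.135 and Tet3 -0.0323 without the 5 Y-linked libraries. At day 14 against day 7 they gave Tet2 0.0021 with RLE scaling and 0.0022 with DESeq2, Dnmt3a 0.024, Tet2 0.13 and Tet3 0.0689 with library totals, and Dnmt1 -0.261, Uhrf1 -0.199 and Tet3 0.177 with the Mki67 covariate. Per log2 unit of Mki67 they gave Tet2 0.0062 with library totals, 0.0348 in the replicate block and 0.0299 without the 5 Y-linked libraries, Dnmt3a 0.0751 without control 1 and 2 and 0.0893 without those 5, and Dnmt3b -0.0529 without those 5 and -0.0913 with Mpo as a covariate. When single libraries were left out, log2 changes at day 14 against controls ran from -0.094 to 0.0872 for Dnmt3a, -0.235 to 0.0649 for Tet1 and -1.21 to 0.0729 for Uhrf1. Those at day 14 against day 7 ran from -0.108 to 0.0300 for Tet2 and -0.0306 to 0.201 for Dnmt1, and Tet2 per log2 unit of Mki67 from -0.0700 to 0.0105.

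Correlations with Mki67 that missed the threshold after adjustment over the 8 relations, or changed sign, were Dnmt3a -0.454 with library totals, -0.144 without control 1 and 2, -0.0719 without the 5 Y-linked libraries, -0.372 without the farthest libraries and 0.534 in day 7 alone. Dnmt3b gave 0.379, 0.433 and 0.179 without the farthest libraries, without the 5 Y-linked libraries and in day 7 alone. Without the 5 Y-linked libraries Dnmt1 gave 0.425 and Tet3 -0.615 (unadjusted permutation p = 0.0434 for Tet3), and in day 7 alone they gave 0.662 and 0.0312, while Tet1 gave -0.632 in day 7 alone. With single libraries left out, r ran from -0.687 to -0.415 for Dnmt3a and 0.484 to 0.639 for Dnmt3b.

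Replicate numbers did not pair the libraries: of 13 same-numbered pairs, 3 had correlated deviations over 0.1 (-0.343 to 0.295). With the number as a replicate block, 0, 0 and 0 of the 8 genes were called at day 14 and day 7 against controls and at day 14 against day 7, and 4 with Mki67, while calls over all genes became 46, 35, 28 and 1342, beside 577, 2, 178 and 2376. DESeq2 called 1551, 1603, 707 and 3355 genes, and limma-voom 1003, 3, 189 and 2820. With the spread of these groups, an uncalled change here is not shown to be absent.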
